A study of Mus musculus with 24 samples.

Results

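Macrophages of the dura mater, the outer covering of the brain, were set against macrophages of the diaphragm in libraries low in MHC class II, the surface proteins that present antigen to helper T cells. The members were 5 of the 16 sequencing libraries of the series. They were the 3 dural libraries marked P4 in the count table (numbers 1, 3 and 4) and diaphragm libraries 1 and 7, each of the latter the sum of a pair of sequencing runs with the same number. All samples came from wild type C57BL/6 mice at 17 weeks of age in steady state, and the groups used here differed in tissue only as far as the labels go. The series is titled for RAG-1 deficient mice given T cells, while the labels of all 24 samples give wild type animals. The macrophages were sorted in bulk after perfusion of the heart. The labels sort the samples of each tissue into numbered subsets, but the columns of the table carry no subset name, so P4, 1 and 7 are used here only as names. The measured level of the class II genes chose the diaphragm libraries, and libraries low in that respect were picked on both sides. That choice may narrow the spread between libraries. The labels do not say whether libraries of 1 tissue came from separate animals, and p-values then measure only the spread between these libraries.

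Resident macrophages clear dead cells and debris, sample the tissue fluid, and release cytokines and growth factors that act on their neighbours. In many organs those low in MHC class II lie along vessels and carry the scavenger receptors LYVE1, CD163 and CD206 (Mrc1) and the folate receptor Folr2, whereas those high in class II lean towards antigen presentation. In the meninges, the border macrophages of the dura, pia and vessel sheaths share part of their gene programme with microglia, among it the fractalkine receptor Cx3cr1 and the Fc receptor-like gene Fcrls.

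The 3 dural libraries held between 10457920 and 16328691 counts and the 2 diaphragm libraries 21265190 and 25748458. The macrophage genes of the labels' cell type were present throughout. C1qa, a subunit of complement C1q, stood at 5053, 4994 and 5108 CPM (counts scaled to a library of 1000000) in dura P4 numbers 1, 3 and 4 and at 4520.1 and 4966 CPM in diaphragm 1 and 7. Genes of other cell types were present as well and differed between the sides, as the plot of their summed levels shows. Summed over 15 fibroblast genes the level was 3409 to 6116 CPM in dura P4 and 12024 to 23579 CPM in diaphragm 1 and 7. The 11 endothelial genes summed to 159 to 324 against 3027 to 3136 CPM, and the 15 skeletal muscle genes to 9.300 to 18.2 against 193 to 337 CPM. The 14 meningeal genes went the other way, with 294 to 476 against 43.05 to 53.7 CPM. Lymphocyte genes were low on both sides, at 34.8 to 41.5 and 17.01 to 17.4 CPM. Diaphragm 1 and 7 also held genes of liver macrophages: Clec4f, the lectin by which these cells are recognised, was at 401 and 1005 CPM there and at 0.086, 0.063 and 0.112 CPM in dura P4. It was higher still in diaphragm libraries 2 and 8, at 3182 and 3298 CPM, and at 0.181 to 1.97 CPM in diaphragm 3, 9 and 6. Summed over Clec4f, Cd5l, Vsig4, Marco, Clec1b and C6, a set put together after their values were seen, the level was 1535 and 2996 CPM in diaphragm 1 and 7 and 19.1 to 30.7 CPM in dura P4. These values accompany every difference below, and their part in it was not tested.

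**Figure D1:**
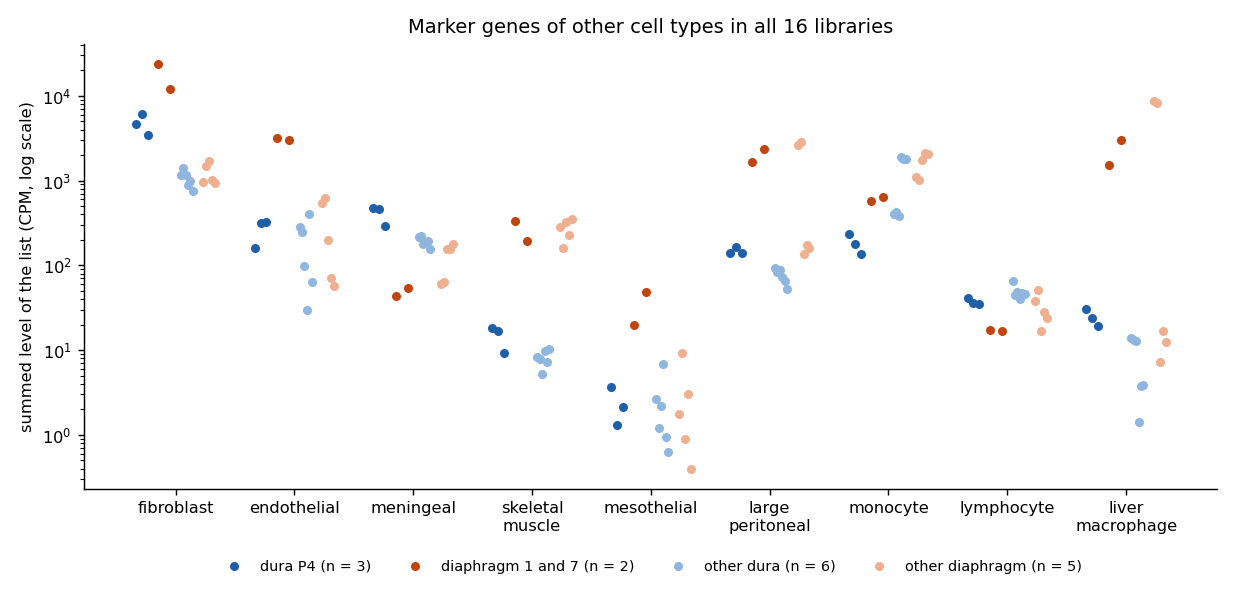
Summed level in CPM (log scale) of marker genes of 9 other cell types, 1 point per library, for the 3 dura P4 libraries, diaphragm 1 and 7, the 6 other dural and the 5 other diaphragm libraries. Fibroblast and endothelial genes are highest in diaphragm 1 and 7, meningeal genes in dura P4, and liver macrophage genes are high in 4 of the 7 diaphragm libraries.

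The class II genes that chose the libraries are given as a description, without a test. H2-Ab1, the beta chain of the class II molecule I-A, was at 935, 1109.7 and 1073 CPM in dura P4 and at 306 and 383 CPM in diaphragm 1 and 7. The other libraries held 9879 to 16229 CPM in dura and 8082 to 17898 CPM in diaphragm. The chosen libraries were thus far below the rest on both sides but were not at 1 level, with dura above diaphragm. Summed over the class II genes the level was 5429.96 to 6339.5 CPM in dura P4 and 1885 to 2233 CPM in diaphragm 1 and 7. The invariant chain Cd74 was at 2387, 2772 and 2657 against 1012 and 1147 CPM, and Ciita, the factor that switches class II genes on, at 15.6, 26.3 and 22.5 against 3.602 and 6.88 CPM. Cx3cr1 was at 1140.4, 1144 and 1122 CPM in dura P4 and 208 and 195 CPM in diaphragm, and the vessel-associated hyaluronan receptor Lyve1 at 286, 251 and 286 and 1403 and 1515 CPM. Retnla, a secreted protein induced by interleukin 4, was at 1091 and 959.9 CPM in diaphragm 1 and 7 against 6.38, 7.38 and 15.9 CPM in dura P4.

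Across the whole transcriptome 14356 genes were tested with edgeR's quasi-likelihood test, and 2988 of them, 20.8%, differed between dura P4 and diaphragm 1 and 7 at a Benjamini-Hochberg adjusted p under 0.05. In dura 1247 genes were higher, 8.69% of those tested, and 1741 were lower, 12.1%. A change of at least 2-fold was found in 572 of the former and 1277 of the latter. The median log2 fold change over all genes tested, dura minus diaphragm, was 0.01. For 7167 genes, 49.9%, the libraries of the tissues did not overlap, with all dural values above both diaphragm values for 24.7% of the genes tested and below them for 25.2%. In each of the 5 fits that left out 1 library, 570 of the higher and 900 of the lower genes were called again. Without diaphragm 1 the number called was 1863. A single fit was also made of all 16 libraries in 4 sets, namely dura P4, diaphragm 1 and 7, the other dural and the other diaphragm libraries. The sets of other libraries are mixed, with Pla2g2d from 13.2 to 640 CPM in the dural one, and their spread enters this fit. It called 1624 genes for the same contrast. These counts include the class II and marker genes, which carry no test in what follows. In a bulk sample, fewer cells of a type and less RNA per cell cannot be told apart, and tissue and any batch of preparation or sequencing cannot be told apart here either.

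**Figure D2:**
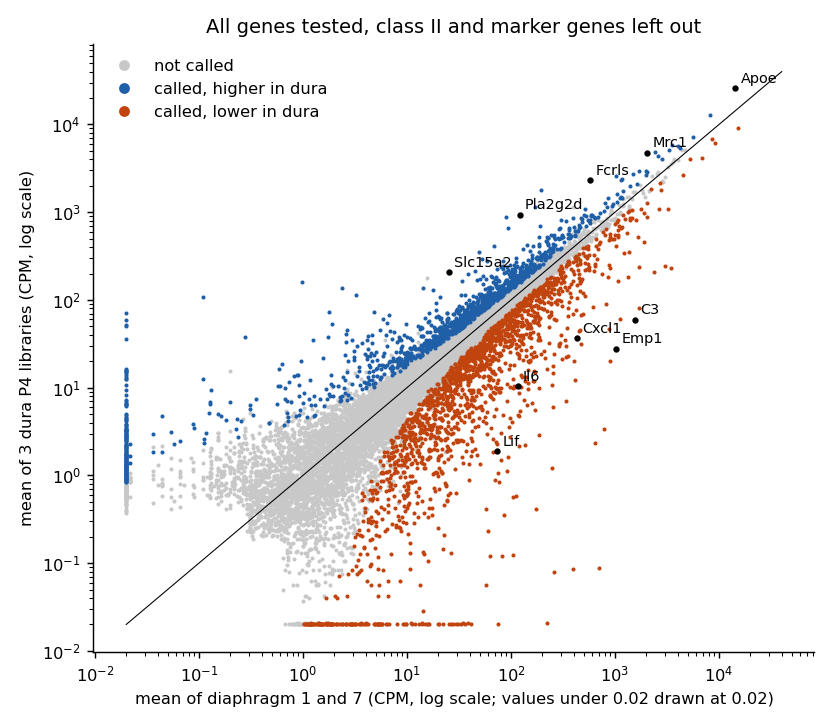
Mean level of each gene tested in diaphragm 1 and 7 (x axis) and in the 3 dura P4 libraries (y axis), both in CPM on log scales, with genes called higher or lower in dura in colour and the class II and marker genes left out. Named genes are marked in black; Pla2g2d and Fcrls lie above the line of equal levels, and Emp1, C3, Cxcl1 and Lif far below it.

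Marker genes of other cell types were part of the difference. All 11 endothelial genes fell in dura and none rose, as did 8 of 15 fibroblast, 9 of 13 skeletal muscle and 4 of 8 mesothelial genes tested. The fibroblast collagen Col3a1 was at 247, 333 and 159 against 4132 and 1969 CPM, and Dpt, dermatopontin, at 0.949, 0.883 and 1.85 against 318 and 179 CPM. Muscle troponin Tnnt3 was at 33.7 and 26.1 CPM in diaphragm 1 and 7 and at 0 in all 3 dural libraries, and the mesothelial gene Upk3b at 1.41 and 18.1 CPM and 0. Of the 10 hepatocyte genes 9 fell, and Alb, albumin, was at 0.259, 0 and 0 against 265 and 525 CPM. Summed over the 10 genes the level was 12.2, 4.67 and 513 CPM in dura P4 and 368 and 726 CPM in diaphragm 1 and 7, so that the sum of number 4 lay within the range of the diaphragm. That sum does not stand for the list. For 9 of the genes all dural values, number 4 included, lay below both diaphragm values, and for 1 they overlapped. Such an order held for 25.2% of all genes tested. In dura 10 of 13 meningeal genes rose and none fell, 5 of them with no count in diaphragm 1 and 7 (Slc47a1, Ptgds, Zic1, Zic2 and Zic4), and 3 of 7 osteoblast genes rose, of which Sp7 was at 8.63, 7.26 and 4.99 CPM and 0 in diaphragm 1 and 7. The counts for the remaining cell types, higher and lower of those tested, were 1 and 1 of 8 for osteoclasts, 1 and 0 of 4 for lymphocytes, 2 and 0 of 4 for neutrophils, 0 and 0 of 7 for mast cells (edgeR; 1 of 7 at an unadjusted p under 0.05 and 1 with DESeq2), 3 and 1 of 8 for Schwann cells and 1 and 0 of 6 for erythroid cells. Over all genes tested 8.69% were called higher and 12.1% lower. Several of these counts by cell type rested on single libraries. Those for mesothelial genes lower in dura became 2 without diaphragm 1 and 1 without diaphragm 7, and those for Schwann cell genes higher in dura 1 without either. Neutrophil genes higher in dura numbered 1 without dura 1 and 0 without dura 3 or either diaphragm library (edgeR). Erythroid genes numbered 4 without diaphragm 7 and 0 without dura 1 or dura 3. With all 16 libraries in 1 fit, 5 of the 11 endothelial, 6 of the 8 fibroblast, 2 of the 4 mesothelial and 8 of the 10 meningeal calls were kept.

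Genes known from microglia, only part of them shared with border macrophages, were mostly higher in dura. Of the 11 such genes tested, Cx3cr1 left aside, 10 rose and none fell, with a median log2 fold change of 1.23. Fcrls (chromosome 3, 87250758 to 87263738, GRCm38) was at 2276, 2246 and 2374 CPM in dura P4 and at 631 and 513 CPM in diaphragm, a log2 fold change of 1.997 ± 0.11 (SE) with an adjusted p of 7.81e-06 in edgeR's test. The dural values lay close together and far above both diaphragm values. Siglech, a sialic acid-binding lectin of microglia and plasmacytoid cells, was at 173, 159 and 169 against 52.7 and 42.3 CPM (log2 fold change 1.80 ± 0.14). The purinergic receptors P2ry12 and P2ry13, through which microglia sense ADP, were at 212, 195 and 219 against 95.5 and 106 CPM and at 189.8, 217 and 198 against 77.8 and 93.1 CPM. Their log2 fold changes were 1.05 ± 0.12 and 1.23 ± 0.13. Gpr34, a lysophosphatidylserine receptor, rose by 1.26 ± 0.14 on the log2 scale, from 95.9 to 127 CPM in diaphragm to 259 to 279 CPM in dura. Trem2, a lipid-sensing receptor, was at 298, 208 and 245 against 112 and 103 CPM (log2 fold change 1.22 ± 0.17). Sall1, a nuclear factor that defines microglia, was at 3.02, 2.71 and 2.41 CPM in dura and had no count in diaphragm 1 or 7, where 3 counts over both libraries would be 0.0595 CPM. That puts dura at least 45.6-fold higher. Tmem119, another gene used to recognise microglia, was at 70.8, 66.7 and 45.7 against 48.3 and 30.7 CPM and did not pass the test (adjusted p = 0.117). In the other libraries, Fcrls was at 796 to 2129.7 CPM in dura and 458 to 846 CPM in diaphragm, ranges that overlapped. A fit of all 16 libraries kept 5 of the 10 calls, and P2ry12, P2ry13 and Siglech were among those it lost.

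The genes of LYVE1-type resident macrophages split. Of 19 tested, Lyve1 left aside, 11 rose in dura, 3 fell and 5 were not called (median log2 fold change 0.39). Receptors were found in both directions. Mrc1, the mannose receptor CD206, was at 4408, 4590.2 and 5262 CPM in dura P4 and 1885 and 2159.7 CPM in diaphragm (log2 fold change 1.22 ± 0.10, adjusted p = 7.25e-05). Stab1, a scavenger receptor of vessel-lining and tissue macrophages, was at 4463, 4313 and 5740.3 against 2417 and 2401 CPM (log2 fold change 0.998 ± 0.13). The galactose-binding lectin Clec10a was at 719, 692 and 665 against 155 and 222 CPM, and the lectin Cd209f at 536, 528 and 478 against 169 and 289 CPM. Both rose, by 1.87 ± 0.16 and 1.16 ± 0.20 on the log2 scale. Folr2 went down, at 515, 563 and 671 CPM in dura against 1218 and 1379 CPM in diaphragm (log2 fold change -1.16 ± 0.12, adjusted p = 0.000262). Timd4, which binds phosphatidylserine on dying cells, was at 58.7, 76.7 and 73.1 against 335 and 452 CPM, a log2 fold change of -2.51 ± 0.16. Fcna, a ficolin that opens the lectin pathway of complement, was at 65.6, 52.1 and 61.9 against 782 and 1468 CPM, with a log2 fold change of -4.24 ± 0.24. Timd4 and Fcna are known from liver macrophages as well, whose genes were present in diaphragm 1 and 7. In diaphragm 2 and 8, where the liver macrophage genes were highest, Fcna was at 1299 and 1695 CPM, and in diaphragm 3, 9 and 6 at 16.4 to 38.5 CPM. Folr2 was at 1362 and 1504 and 193 to 261 CPM in the same libraries. The haemoglobin scavenger Cd163 was at 1309, 1389.9 and 1552 CPM in dura and 1102 and 1271 CPM in diaphragm and did not pass the test (adjusted p = 0.144).

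Among the secreted products of the same list, the chemokine Ccl8 had the highest fold change of the members tested. Ccl8 (chromosome 11, 82115185 to 82116799, GRCm38) was at 358, 403 and 304 CPM in dura P4 and at 49.4 and 48.02 CPM in diaphragm 1 and 7, a log2 fold change of 2.85 ± 0.15 (adjusted p = 4.88e-06). Selenop, the selenium carrier, was at 13059, 12335 and 13022 against 8442 and 8022 CPM, and the growth factor Igf1 at 648, 684 and 635 against 388 and 336 CPM. Both were called, at 0.63 ± 0.07 and 0.85 ± 0.10 on the log2 scale. Pla2g2d, a secreted phospholipase known for restraining T cell responses, was at 890.5, 944 and 959 against 113 and 128 CPM (log2 fold change 2.94 ± 0.11, adjusted p = 2.02e-06). Its dural values lay close together. Pla2g2d and Ccl8 spanned a wide range among the other libraries, from 13.2 to 640.3 CPM and 18.8 to 444 CPM in dura, and from 6.47 to 713 CPM and 3.38 to 164 CPM in diaphragm. A fit of all 16 libraries called no member of this list in either direction, and it also lost Pla2g2d. Leaving out 1 of the 5 libraries at a time kept between 9 and 11 of the members higher in dura and all 3 of those lower.

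**Figure D3:**
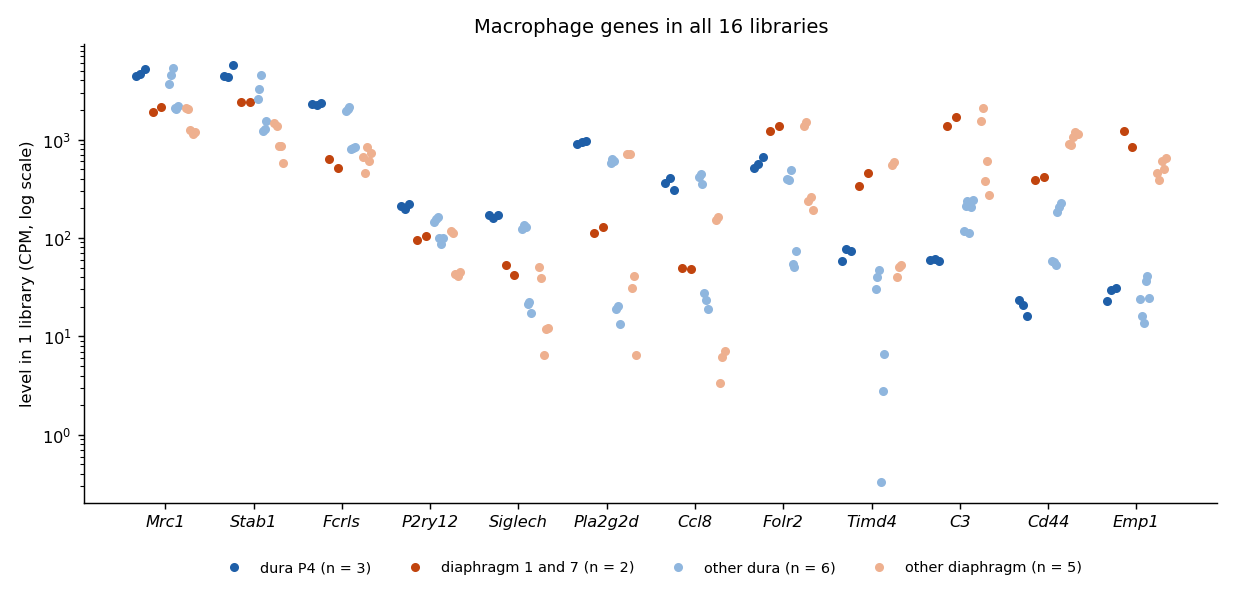
Level of 12 macrophage genes in CPM (log scale), 1 point per library, in dura P4, diaphragm 1 and 7, the other dural and the other diaphragm libraries. The 3 dura P4 points lie above both points of diaphragm 1 and 7 for Mrc1 to Ccl8 and below them for Folr2 to Emp1.

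General macrophage genes moved in both directions. Of 18 tested, 6 rose, 3 fell and 9 were not called, with a median of 0.22, where 8.69% of all genes tested rose and 12.1% fell. Their summed level was 34221 to 35313 CPM in dura P4 and 33295 to 35331 CPM in diaphragm, ranges that overlapped. The receptor for the growth factor CSF1, Csf1r, was at 5298, 5822 and 6442 against 3248 and 3759 CPM (log2 fold change 0.73 ± 0.10), and Adgre1, which encodes F4/80, at 1483, 1562 and 1811 against 1049 and 1061 CPM (log2 fold change 0.61 ± 0.10). Fcgr1, the high-affinity IgG receptor CD64, rose most in this list, from 125 and 134 CPM in diaphragm to 409.7, 374 and 358 CPM in dura (log2 fold change 1.54 ± 0.12, adjusted p = 3.62e-05). Lyz2, lysozyme, fell by 0.60 ± 0.08 on the log2 scale, with 6481, 5770.1 and 5988 against 9194 and 9123 CPM. The uptake receptor Mertk, at 148, 170.3 and 191 against 97.2 and 135 CPM, did not pass (adjusted p = 0.0513). It was called higher with DESeq2 (adjusted p = 0.0156), limma-voom (0.0294) and some other settings. With RLE factors and in the fit of all 16 libraries it was not called. The fit of all 16 libraries called 2 members higher and 2 lower, and it lost Csf1r and Adgre1.

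Transcription factors that shape macrophages moved in both directions, with 5 of 23 higher, 11 lower and 7 not called (median -0.40). The leucine zipper factor Maf was at 1309, 1436 and 1628 against 752 and 965 CPM, a log2 fold change of 0.76 ± 0.13, and its call was lost in the fit of all 16 libraries. Irf8, needed for microglia and dendritic cells, and Mef2c, a factor active in microglia, rose in dura by 0.80 ± 0.11 and 0.91 ± 0.12 on the log2 scale. Their levels were 294 to 308 against 160.3 to 186 CPM and 284 to 311 against 145 to 171 CPM. Bhlhe40, a repressor linked to macrophage proliferation, was at 16.4, 21.3 and 24.3 against 159 and 146 CPM, and Nr1h3, the oxysterol receptor LXR alpha, at 3.54, 7.82 and 5.72 against 46.8 and 97.2 CPM. Both fell, by 2.89 ± 0.17 and 3.65 ± 0.36 on the log2 scale. Nr1h3 is also active in liver macrophages. Its level was 282 and 293 CPM in diaphragm 2 and 8 and 27.9 to 41.8 CPM in diaphragm 3, 9 and 6. Gata6, the factor of large peritoneal macrophages, was at 0, 1.199 and 1.12 CPM in dura and 27.9 and 19.4 CPM in diaphragm 1 and 7 (log2 fold change -4.85 ± 0.69). Other genes of those cells went with it. Prg4, lubricin, was at 95.03 and 115 CPM in diaphragm 1 and 7 and 1.12, 0.189 and 0.392 CPM in dura P4, and the lipoxygenase gene Alox15 at 88.6 and 81.4 and 0, 0.883 and 0.168 CPM. Of the 15 large peritoneal genes tested, 12 fell in dura and none rose, and the list includes Vsig4 and Timd4, which liver macrophages also carry. The fit of all 16 libraries kept 3 of the 5 factors higher in dura, 9 of the 11 lower and 8 of the 12 large peritoneal calls.

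**Figure D4:**
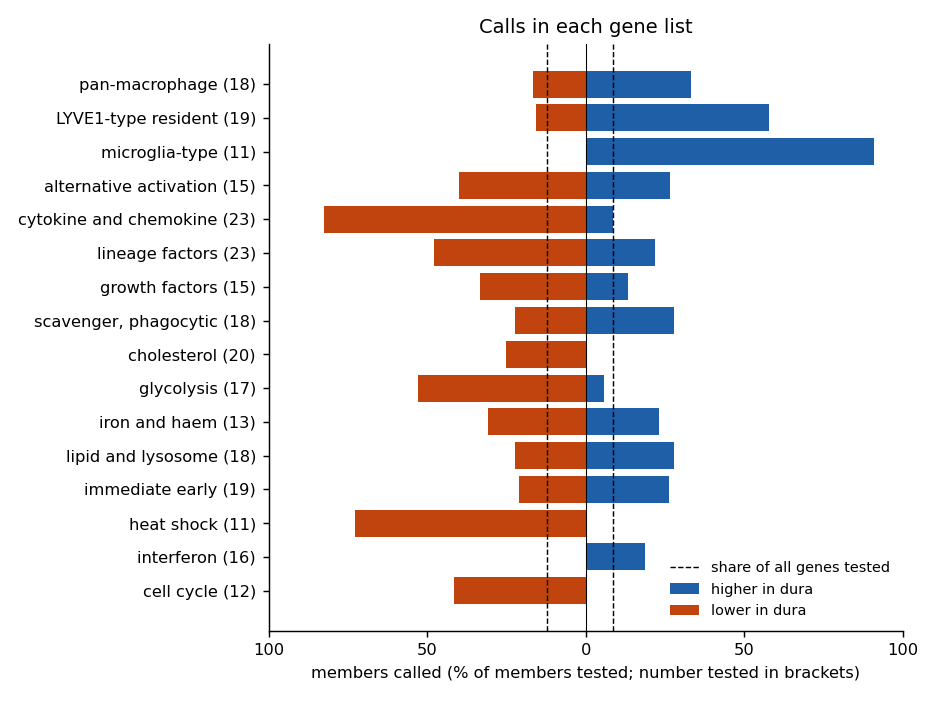
Share of the tested members of each macrophage gene list that were called higher (right, blue) or lower (left, orange) in dura P4 than in diaphragm 1 and 7, with the share over all genes tested as dashed lines (8.69% and 12.1%). The microglia-type list lies furthest to the right and the cytokine and chemokine list furthest to the left.

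Cytokine and chemokine genes were lower in dura. Of 23 tested, 19 fell, 2 rose and 2 were not called, with a median log2 fold change of -1.33. These genes are switched on within minutes to hours by inflammatory signals, in large part through the NF-kappaB family of transcription factors, which bind a short element in the promoter. For Cxcl1, Cxcl2, Cxcl3, Il6 and Nfkbia the 120 bases before the RefSeq start site (build GRCm38.p6) are shown, because these members were lower in dura and their windows hold such an element. Capitals mark a match to a kappaB motif, searched on either strand. In Cxcl1, Cxcl2 and Cxcl3 a match on each strand overlaps the other. The sequences are read 5′ to 3′ on the strand of the gene, at chr5:90891125-90891244, chr5:90903779-90903898, chr5:90785981-90786100 and chr5:30012994-30013113 on the plus strand and chr12:55492648-55492767 on the minus strand, in the order given.
Cxcl1: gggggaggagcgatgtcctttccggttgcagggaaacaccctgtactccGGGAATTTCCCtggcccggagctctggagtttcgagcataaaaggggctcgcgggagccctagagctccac
Cxcl2: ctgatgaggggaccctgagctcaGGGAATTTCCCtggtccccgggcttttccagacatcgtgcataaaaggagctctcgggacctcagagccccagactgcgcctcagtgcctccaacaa
Cxcl3: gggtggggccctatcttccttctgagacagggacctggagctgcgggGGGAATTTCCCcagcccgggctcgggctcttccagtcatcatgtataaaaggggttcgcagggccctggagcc
Il6: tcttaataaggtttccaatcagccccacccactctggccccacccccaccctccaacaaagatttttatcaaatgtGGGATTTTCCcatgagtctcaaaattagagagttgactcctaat
Nfkbia: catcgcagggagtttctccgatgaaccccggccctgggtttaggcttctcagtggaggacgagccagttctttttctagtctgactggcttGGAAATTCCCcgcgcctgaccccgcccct
The 3 chemokine genes hold the same 11 bases, at 71, 97 and 73 bases before the start. Among the 16 genes of the list with a promoter window of 300 bases (250 before to 50 after the start), 7 hold a match, 43.8%, namely these 5, Cxcl10 and Csf1. Of all 27025 genes with a window 1.63% hold one in at least 1 of their windows, and of all 32817 windows 1.47% do. The same search was made for a pair of other lists that were lower in dura. A heat shock element was found for 3 of 8 heat shock genes, 37.5%, against 0.662% of all genes. A sterol element was found for 0 of 13 cholesterol genes, against 0.27% of all genes. These shares describe the lists, which were put together by known function, and do not bear on the difference between dura and diaphragm. A match is a description of the letters and not evidence of binding in these cells, and its absence from a window, as for Tnf, Il1a and Il1b, says only that these letters are not there.

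The neutrophil-attracting chemokine Cxcl1 (chromosome 5, 90891241 to 90893115) was at 26.8, 42.8 and 39.97 CPM in dura P4 and 385 and 480.2 CPM in diaphragm 1 and 7 (log2 fold change -3.57 ± 0.19, adjusted p = 6.62e-06). Cxcl2 was at 384, 546 and 429 against 2071 and 1710.3 CPM and Cxcl3 at 0, 1.14 and 0.392 against 15.2 and 12.7 CPM, with log2 fold changes of -2.07 ± 0.15 and -4.71 ± 0.79. The groups did not overlap for any of the 3, where diaphragm lay above dura without overlap for 25.2% of all genes tested. Il6, the fever-inducing cytokine, was at 3.97, 17.04 and 10.3 against 123 and 108 CPM (log2 fold change -3.46 ± 0.42, adjusted p = 0.000535). Dural number 1 was the lowest of the 5 libraries and both diaphragm values were close. Tnf was at 99.03, 129 and 104 against 521 and 498 CPM, a log2 fold change of -2.21 ± 0.13 (adjusted p = 8.48e-06). Of the interleukin 1 family, Il1a was at 17.3, 41.5 and 13.1 against 229 and 286 CPM and Il1b at 209, 304 and 136 against 622 and 633 CPM. Their natural antagonist, Il1rn, was at 29.8, 46.3 and 20.6 against 231 and 229.5 CPM. These 3 genes fell by 3.44 ± 0.40, 1.55 ± 0.26 and 2.85 ± 0.27 on the log2 scale, so that agonists and antagonist were lower together. Lif, a cytokine of the interleukin 6 family, was at 2.93, 1.58 and 1.18 against 52.5 and 94.9 CPM (log2 fold change -5.34 ± 0.38). Nfkbia, the NF-kappaB inhibitor that NF-kappaB itself induces, was at 848, 878 and 908 against 2153 and 1925 CPM (log2 fold change -1.23 ± 0.09). Ptgs2, the inducible cyclooxygenase, was at 118, 134 and 98.1 against 225 and 358 CPM, a log2 fold change of -1.33 ± 0.20.

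The monocyte-attracting CC chemokines did not all move in 1 direction. Ccl2 was at 847, 873 and 799.5 against 1380.2 and 1107 CPM and Ccl7 at 673, 699 and 654 against 1363 and 975 CPM, with log2 fold changes of -0.58 ± 0.11 and -0.80 ± 0.14. Ccl12, their mouse paralogue, was at 281, 251 and 228 against 114 and 81.5 CPM and rose by 1.36 ± 0.17 on the log2 scale (adjusted p = 0.000628), as Ccl8 did. Nfkbiz, an atypical member of the NF-kappaB inhibitor family, was at 1564, 1717 and 1998 against 1054 and 1312 CPM (log2 fold change 0.56 ± 0.13). Its adjusted p of 0.0154 became 0.105 without diaphragm 1 and 0.0554 without dura 4, which left 1 gene of the list higher in dura. Osm, at 182, 202 and 184 against 149 and 147 CPM, did not pass (adjusted p = 0.0511). It was called higher with DESeq2 (adjusted p = 0.00823), limma-voom (0.0308) and some other settings, but not with RLE factors or in the fit of all 16 libraries.

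**Figure D5:**
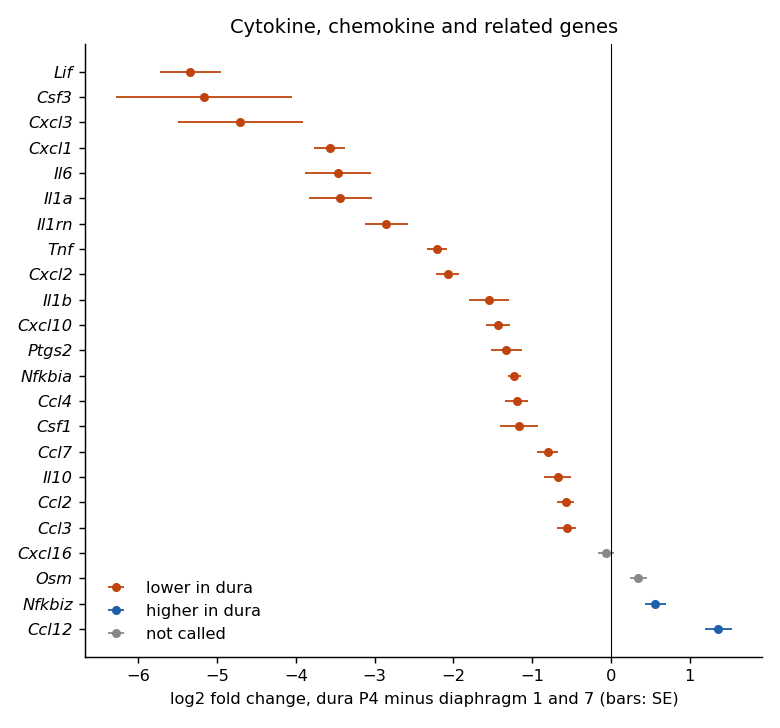
Log2 fold change, dura P4 minus diaphragm 1 and 7, of the 23 cytokine, chemokine and related genes tested, with bars of 1 standard error. Orange points (19) were called lower in dura, blue points (2, Nfkbiz and Ccl12) higher, and grey points (2) were not called.

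Many of these genes are made by fibroblasts and endothelial cells as well as by macrophages, and both cell types' markers were higher in diaphragm 1 and 7. Their part in the difference was not tested. In the other libraries the fibroblast genes summed to 745 to 1412 CPM in dura and 948 to 1715 CPM in diaphragm, and the endothelial genes to 29.8 to 407 and 56.4 to 627 CPM. There Cxcl1 was at 35.2 to 59.4 CPM in dura and 411 to 505 CPM in diaphragm, Il6 at 10.1 to 18.5 and 109.8 to 194 CPM, and Tnf at 123 to 310.01 and 549 to 1111 CPM. The tissues did not overlap for any of these 3, though the share of all genes without overlap in the other libraries was not counted. Lif did not overlap either, with 0.476 to 2.002 CPM in the other dural and 16.8 to 75.1 CPM in the other diaphragm libraries. Leaving out 1 of the 5 libraries kept between 16 and 19 of the members lower in dura, and the fit of all 16 libraries kept 12 of the 19. Among the 7 it lost were Il1b, Ptgs2, Ccl2 and Ccl7.

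Heat shock genes, which encode chaperones induced by protein damage, fell as well, 8 of 11 with none higher (median -0.85). The inducible HSP70 genes Hspa1a and Hspa1b, which are near-identical copies so that reads between them are uncertain, were at 54.5, 46.8 and 43.6 against 327 and 361 CPM and at 32.3, 30.9 and 30.1 against 399 and 541 CPM. Their log2 fold changes were -2.84 ± 0.13 and -3.93 ± 0.15. The constitutive HSP70, Hspa8, was at 339, 338 and 367 against 418 and 399 CPM and did not pass the test (adjusted p = 0.125). Hspb1, a small heat shock protein, was at 3.71, 3.98 and 3.14 against 23.02 and 19.2 CPM (log2 fold change -2.56 ± 0.28). Immediate early genes, induced within minutes of stimulation, were split, with 5 of 19 higher, 4 lower and a median of 0.04. The shares over all genes tested were 8.69% higher and 12.1% lower. Btg2, an antiproliferative gene of this list, was at 2532, 2436 and 2695 against 992 and 1058 CPM (log2 fold change 1.31 ± 0.09), and Fos at 4232, 3739.7 and 4231 against 2986 and 2729 CPM (log2 fold change 0.50 ± 0.09). Dusp1, a phosphatase that ends MAP kinase signalling, fell by 0.62 ± 0.08 on the log2 scale, with 1816, 1730.04 and 1863 against 2626 and 2885 CPM. The fit of all 16 libraries kept 6 of the 8 heat shock calls and 4 of the 5 immediate early genes higher in dura, and it lost all 4 that were lower. Without diaphragm 1 the list held 3 genes higher in dura and 1 lower.

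Metabolic genes that were called were mostly lower in dura, where 12.1% of all genes tested were called lower and 8.69% higher. Of 17 glycolysis genes 9 fell and 1 rose (median -0.50). Lactate dehydrogenase Ldha was at 174, 184 and 173 against 308 and 305 CPM, the lactate exporter Slc16a3 at 10.9, 6.37 and 5.04 against 40.02 and 45.8 CPM, and the platelet-type phosphofructokinase Pfkp at 26.6, 26.9 and 23.1 against 50.5 and 57.1 CPM. They fell by 0.80 ± 0.10, 2.55 ± 0.31 and 1.08 ± 0.16 on the log2 scale. The list held 6 or 7 genes called lower without 1 library, and 4 in the fit of all 16 libraries, which lost Pfkp. The 1 gene that rose was called again only without dura 1. Of 20 cholesterol genes 5 fell and none rose (median -0.46), among them Insig1, the sterol-induced brake on cholesterol synthesis, at 55.8, 56.7 and 55.4 against 172 and 161 CPM. Its log2 fold change was -1.58 ± 0.12, with an adjusted p of 3.15e-05 in edgeR's test. The remaining 15, most enzymes of the pathway among them, were not called. The number called lower was 3 without dura 3, dura 4 or diaphragm 1, and 2 in the fit of all 16 libraries. In haem and iron handling, Hmox1, which breaks down haem, was at 321, 378 and 331 against 1316 and 1137 CPM (log2 fold change -1.85 ± 0.11), and the transferrin receptor Tfrc at 50.2, 50.04 and 56.4 against 116 and 112 CPM (log2 fold change -1.13 ± 0.13). Hmox1 was at 1550 and 1451 CPM in diaphragm 2 and 8, where the liver macrophage genes were highest, and at 553 to 646 CPM in diaphragm 3, 9 and 6. Hpx was at 0, 0 and 0.056 CPM in dura P4 and 12.6 and 27.4 CPM in diaphragm 1 and 7, which also held hepatocyte genes. The part of liver cells in these differences was not tested. Of the 13 haem and iron genes tested, 3 rose and 4 fell, Hmox1, Tfrc and Hpx among the latter. Those called higher numbered 1 without any 1 of the dural libraries and 0 without diaphragm 1 (edgeR). Fitting all 16 libraries together left 0 higher and 2 lower and lost Tfrc.

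Lipid and lysosome genes were divided, 5 of 18 higher, 4 lower and 9 not called. Apolipoprotein E (Apoe), a lipid carrier, was at 26595, 23723 and 26764 CPM in dura and 13505 and 14987 CPM in diaphragm (log2 fold change 0.84 ± 0.08, adjusted p = 0.000157). The cholesterol exporter Abca1 was at 711, 806 and 1042 against 365 and 419.98 CPM and the protease cathepsin D (Ctsd) at 3287, 2793 and 2805 against 1486 and 1891 CPM, with log2 fold changes of 1.11 ± 0.16 and 0.80 ± 0.13. On the other side, lipoprotein lipase (Lpl) was at 150.3, 163 and 146 against 264 and 280.2 CPM, the tetraspanin Cd9 at 23.8, 20.8 and 25.95 against 119 and 120.2 CPM and the fatty acid-binding protein Fabp4, abundant in endothelium and fat, at 2.16, 7.45 and 5.21 against 138 and 97.4 CPM. Their log2 fold changes were -0.84 ± 0.10, -2.35 ± 0.15 and -4.55 ± 0.37. The fit of all 16 libraries lost Apoe, Abca1, Ctsd and Cd9. Of 18 scavenger and phagocytic receptors, 5 rose and 4 fell. Beside both lists, 8.69% of all genes tested were called higher and 12.1% lower. Those that rose besides Stab1 and Fcgr1 were Axl, Itgb5 and Fcgr3. The receptor kinase Axl was at 844, 859 and 858 against 412 and 532 CPM (log2 fold change 0.85 ± 0.12). Those that fell were Marco, Cd5l, Timd4 and Stab2. Marco was at 0, 0.126 and 0.112 against 148 and 376 CPM and Cd5l at 4.23, 3.03 and 2.92 against 535 and 1016 CPM, while Stab2, a receptor of liver sinusoidal endothelium, was at 6.82, 7.57 and 4.43 against 136 and 147 CPM. All 4 are also known from cells of the liver. Fitting all 16 libraries together left 3 of these receptors higher and 1 lower, and the calls of Stab1, Fcgr3, Cd5l, Timd4 and Stab2 were lost.

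Of 15 growth factor genes 5 fell in dura and 2 rose, Igf1 and Gas6 (median -0.30), where 12.1% of all genes tested fell and 8.69% rose. Hbegf was at 23.8, 51.7 and 36.8 against 193 and 175 CPM and Areg at 0, 0.946 and 0.448 against 24.5 and 20.7 CPM, both ligands of the EGF receptor, with log2 fold changes of -2.30 ± 0.26 and -5.51 ± 0.67. Without dura 4 or without diaphragm 7 only 1 gene of the list was called higher, and the fit of all 16 libraries called none higher and 5 lower. Among genes of alternative activation, the programme induced by interleukin 4, 4 of 15 rose and 6 fell, Retnla left aside (median -0.28). Mrc1, Clec10a, Mgl2 and the inhibitory receptor Cd200r1 were the members that rose. Cd200r1 was at 47.9, 45.6 and 51.3 against 7.86 and 19.97 CPM (log2 fold change 1.78 ± 0.34). Transglutaminase 2 (Tgm2), which had the lowest adjusted p among those that fell, was at 21.6, 47.2 and 35.1 against 322 and 337 CPM (log2 fold change -3.26 ± 0.26, adjusted p = 4.7e-05). Klf4 and Irf4, factors of that programme, fell by 1.24 ± 0.17 and 1.58 ± 0.30 on the log2 scale. In the fit of all 16 libraries 1 member was higher and 4 were lower. Of 16 interferon-induced genes 3 were called higher and none lower, where 8.69% of all genes tested were called higher. Oasl2, the only one of them called in every fit that left out 1 library, was at 146, 162 and 156 against 82.2 and 92.6 CPM, and it was lost in the fit of all 16 libraries. Without diaphragm 1 it was the 1 gene called in this list.

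Genes of monocytes were mostly lower in dura, 8 of 13, and 1 was higher. Clec4e, the lectin Mincle, was at 4.49, 3.15 and 4.37 against 42.97 and 73.02 CPM (log2 fold change -3.87 ± 0.28), and Itgal, an integrin chain of leukocytes, at 29.2, 23.98 and 23.4 against 142 and 193 CPM (log2 fold change -2.73 ± 0.18). Ccr2, the receptor that draws monocytes out of the bone marrow, was the member that rose, at 103, 48.1 and 33.6 against 18.98 and 23.2 CPM (adjusted p = 0.0323). The call was lost without either diaphragm library and in the fit of all 16 libraries. Of 11 dendritic cell genes 2 rose and 4 fell, where 8.69% of all genes tested rose and 12.1% fell. Cd209a, a lectin of monocyte-derived dendritic cells, was at 109.98, 85.6 and 81.1 against 14.1 and 23.5 CPM (log2 fold change 2.28 ± 0.25, adjusted p = 0.000316), whereas the other libraries held 52.2 to 81.2 CPM in dura and 43.8 to 332 CPM in diaphragm. It was called lower in dura there, with a log2 fold change of -1.60 ± 0.45 and an adjusted p of 0.0233 in edgeR's test, so the calls were opposite, and the difference between them was not tested. The latter call was lost without diaphragm 3 (adjusted p = 0.0622), diaphragm 9 (0.0513) or diaphragm 6 (0.0654) and with limma-voom (0.119). Dpp4, a surface peptidase of dendritic cells and also of fibroblasts, was at 2.59, 3.41 and 1.46 against 40.9 and 43.7 CPM. Without diaphragm 1 the dendritic list held 2 genes lower in dura, and without dura 1, dura 3 or either diaphragm library 1 higher. Cell cycle genes fell in 5 of 12 with none higher (median -0.99). Top2a, a topoisomerase of dividing cells, was the only one of the 5 called in every fit that left out 1 library, at 3.97, 8.83 and 10.8 against 38.2 and 35.3 CPM (log2 fold change -2.22 ± 0.35). The list held 1 such gene without diaphragm 7, 2 without diaphragm 1 and 3 without any 1 of the dural libraries, and none in the fit of all 16 libraries (edgeR).

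The genes with the largest fold changes among those present on both sides were of several kinds. Of the 10 highest in dura, Igf2, Igfbp5, H19 and Gpx3 are products of stromal cells or are imprinted growth genes. Igf2 was at 877, 1074 and 674 against 103 and 77.8 CPM and Igfbp5, an IGF-binding protein, at 1629, 2315 and 1465 against 196 and 192 CPM. Zic1, a transcription factor of meningeal fibroblasts, was at 53.8, 61.8 and 34.8 CPM in dura and at 0 in diaphragm 1 and 7, and Slc47a1, a transporter of those cells, at 50.5, 71.2 and 32.4 CPM and 0. Against 3 counts over both diaphragm libraries, dura was at least 842-fold and at least 863-fold higher. Ptgds, a prostaglandin synthase of the meninges, and Gjb6, a connexin gene, were at 131, 41.6 and 38.96 and 43.04, 48.1 and 15.9 CPM and had no count in diaphragm 1 and 7. Slc26a7 was at 59.5, 82.4 and 37.5 CPM in dura P4 and had no count in diaphragm 1 and 7 either. It was not called with limma-voom. Slc15a2, a peptide transporter, was at 205, 196 and 219 against 25.8 and 24.6 CPM and Arhgap19, a GTPase-activating protein, at 344, 434 and 442 against 59.3 and 78.3 CPM. Their log2 fold changes were 3.03 ± 0.13 and 2.55 ± 0.17. Cd4, which mouse tissue macrophages can carry besides T cells, was at 270.1, 309 and 300.4 against 55.8 and 49.9 CPM (log2 fold change 2.46 ± 0.13), and the membrane protein gene Snn at 113, 107 and 105 against 21.4 and 20.3 CPM. Cd4 and Snn were not called in the fit of all 16 libraries. Cd3e, a chain of the T cell receptor complex, was at 0, 0.189 and 0.392 against 0 and 1.66 CPM. The remaining member, Gpx3, a secreted peroxidase, was at 1235, 1267 and 948 against 201 and 136 CPM, and H19, a non-coding RNA, at 645, 748 and 563 against 109 and 77.3 CPM.

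Of the 10 lowest in dura, Vwf, Pecam1 and Ptprb are endothelial genes, Ltbp4 and Gsn are abundant in fibroblasts, and Fcna and Hspa1b are described above. Vwf, the clotting factor carrier, was at 24.4, 104 and 117 against 1759 and 1635 CPM, and the matrix protein gene Ltbp4 at 26.4, 52.8 and 62.3 against 976 and 785 CPM. The other 3 were Emp1, C3 and Cd44. Emp1, an epithelial membrane protein (chromosome 6, 135362545 to 135383173), was at 22.9, 29.3 and 30.8 against 1211 and 836 CPM (log2 fold change -5.22 ± 0.19, adjusted p = 2.02e-06). C3, the central component of complement, was at 60.04, 61.2 and 57.9 against 1372 and 1708 CPM (log2 fold change -4.70 ± 0.12, adjusted p = 5.39e-07). Cd44, a hyaluronan receptor of leukocytes and stroma, was at 23.2, 20.8 and 16.3 against 386 and 418 CPM (log2 fold change -4.34 ± 0.16, adjusted p = 2.02e-06). These 3 also separated the tissues outside the class II-low libraries, though the share of all genes that do so there was not counted. Emp1 was at 13.7 to 40.9 CPM in the other dural and 385 to 645 CPM in the other diaphragm libraries, Cd44 at 52.5 to 228 and 882 to 1189 CPM, and C3 at 113 to 242 and 274 to 2113 CPM. C3 was at 1560 and 2113 CPM in diaphragm 2 and 8, where the liver macrophage genes were highest. In diaphragm 3, 9 and 6 it was at 274 to 601 CPM, closer to dura. The part of liver cells in the C3 difference was not tested. Vim, an intermediate filament protein of mesenchymal and activated immune cells, was at 192, 213 and 227 against 2759 and 1972 CPM (log2 fold change -3.50 ± 0.15) and at 267 to 1325 and 2088 to 5924 CPM in the other libraries. Genes nearly absent from dura P4 included the cartilage matrix gene Cilp, at 309.99 and 132 CPM in diaphragm 1 and 7, the complement gene C7, at 55.2 and 27.6 CPM, and myoglobin (Mb), at 48.2 and 23.8 CPM. Myoglobin had no count in dura P4 and C7 none either, which puts diaphragm at least 544-fold and at least 625-fold higher against 3 counts over the 3 dural libraries. Hmcn2 was at 107 and 43.7 CPM in diaphragm 1 and 7 and had no count in dura P4, a bound of at least 1140-fold. It was not called with limma-voom.

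Some genes higher in dura P4 were on average at least 0.5 times as high in the other dural libraries, where the fibroblast genes summed to 745 to 1412 CPM. The 8 with the highest fold changes were Ccl8, Arhgap19, Fcrls, Clec10a, B3galnt1, Prps2, Sesn1 and Gpr183. Gpr183, an oxysterol receptor that guides immune cells, was at 100.3, 109 and 128 against 33.3 and 38.2 CPM (log2 fold change 1.65 ± 0.16) and at 90.4 to 131 CPM in the other dural and 22.6 to 60.1 CPM in the other diaphragm libraries. Sesn1, a stress-induced regulator of growth, was at 264, 278 and 283 against 74.1 and 94.5 CPM, and at 143 to 285 and 25.5 to 87.5 CPM in the other libraries. For both genes the tissues did not overlap in either set of libraries. Over all genes tested, 49.9% did not overlap in the class II-low libraries, and the share in the others was not counted. Prps2, an enzyme of nucleotide synthesis, was at 176, 185 and 162 against 42.7 and 57.8 CPM, and the glycosyltransferase gene B3galnt1 at 102, 123 and 120.3 against 36.3 and 29.5 CPM.

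The same tissues were compared in the libraries left out so far, 6 dural (P5 and P6) and 5 diaphragm (2, 8, 3, 9 and 6), which share no library with the comparison above. They are not shown to be independent of it, since dural numbers 1, 3 and 4 recur in P4, P5 and P6, and the labels do not say whether a number marks 1 animal. Il1a was highest in number 3 in each set, at 17.3, 41.5 and 13.1 CPM in P4 numbers 1, 3 and 4, 18.3, 49.8 and 24.8 CPM in P5 and 29.2, 62.1 and 37.9 CPM in P6. The fit took the 6 dural libraries as separate, which makes its p-values too small if numbers are shared animals. Of 12855 genes tested with edgeR, 2843 were called, 22.1%, with 1203 genes higher in dura (9.36%) and 1640 lower (12.8%). With library totals in place of TMM factors, 63.4% rather than 42.3% of the calls were higher in dura, and the median log2 fold change moved from 0.02 to 0.17. Of the 1247 genes higher in dura P4 than in diaphragm 1 and 7, 534 were called higher here too, 42.8% of the former and 44.4% of the latter list, and 6 were called lower. Of the 1741 lower genes 843 were called lower here too, 48.4% and 51.4%, and 6 were called higher. The difference between the comparisons was not tested. Cxcl1, Il6, Tnf, Hspa1b, Emp1 and Cd44 were called lower in dura in both, and Fcrls, Mrc1, Stab1, Gpr34, Btg2 and Arhgap19 higher in both. In the other libraries Fcrls was lost without any 1 of the P5 libraries or diaphragm 9 (adjusted p 0.0524 to 0.0551), and Mrc1 without diaphragm 3 or diaphragm 9 (0.0504 and 0.052). Stab1 and Arhgap19 were lost without any 1 of the P5 libraries or diaphragm 3, 9 or 6 (0.0618 to 0.0763 and 0.0523 to 0.061). Ccl8, Pla2g2d, Clec10a, Folr2 and Siglech passed the test in the class II-low libraries and did not pass it here. The sets of other libraries are mixed, which adds to their spread. Ccl8 was at 357 to 444 CPM in dura P5 and at 153 and 164 CPM in diaphragm 2 and 8. It was at 18.8 to 27.5 CPM in dura P6 and 3.38 to 7.07 CPM in diaphragm 3, 9 and 6. In both pairings Clec10a and Siglech were also higher in dura and Folr2 lower. Pla2g2d was at 576 to 640 CPM in P5 and higher, at 713 and 711 CPM, in diaphragm 2 and 8. These smaller sets were not tested.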

How the data were processed

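The authors deposited 1 table of gene counts for macrophages sorted from dura and diaphragm. GRCm38, featureCounts, STAR 2.4.0j and DESeq2 1.20.0 appear in the submitters' processing notes, with no role given. The values were taken as raw counts, being whole numbers with unequal totals per column. Per the labels' protocols the kit was unstranded, so reads of a gene and of an antisense partner count alike. The sources used here give no digestion step for the diaphragm. Columns were matched to a tissue by name only. Diaphragm columns of the same number differed by a chi-square per degree of freedom of 1.008 to 1.169, against at least 10.559 for other pairs, and were summed as 1 library. The 2 columns under 10000 counts were left out, which left 16 libraries. Symbols were found for 40254 of 41388 genes.

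Genes were filtered with filterByExpr and tested with edgeR 4.0.16 in R 4.3.3 (TMM factors, quasi-likelihood, two-sided, Benjamini-Hochberg over all genes tested, threshold 0.05), in separate fits for the 5 class II-low libraries and for the 11 others. SE is the absolute log2 fold change divided by the square root of F. CPM use TMM factors over all 16 libraries. A gene with no count on a side was bounded by 3 counts over that side, which covers counting error only. For any single value, an exact permutation test of 3 against 2 libraries cannot go below 0.1, so none was used. In simulated data for the same 5 libraries, with 13775 genes tested, 98 were changed by 1 on the log2 scale and 96 by 2. Of these 37.8% and 69.8% were recovered, and 9 unchanged genes were called. Far fewer genes were changed there than were called in the real data. That makes the adjusted threshold stricter, so the rates need not hold for the real test. The members, gene lists and naming rule were chosen with earlier results of these data known.

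The text names the 10 highest and 10 lowest fold changes among genes with at least 20 CPM on both sides, called again without each of the 5 libraries and without overlap. To these came 5 and 5 with no level asked of the lower side, 8 and 8 at least 0.5 times as high in the other libraries of the higher tissue, and up to 4 called members of each list, with further members as values. Other settings tried were DESeq2 1.42.0, voom (limma 3.58.1), scaling by RLE, by upper quartile or by library totals, no filter, 10 CPM in 2 libraries, either sequencing run alone, 1 fit of all 16 libraries, and each library left out.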

Additional observations from a re-analysis of the deposited data

Results flagged for a closer look

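Fscn1, an actin-bundling protein of mature dendritic cells, had opposite directions in the class II-low and the other libraries. Its log2 fold change was 0.47 in the former, where it stood at 116, 104 and 96.6 CPM in dura P4 and 75.6 and 76.7 CPM in diaphragm 1 and 7. In the other libraries all 6 dural values, 16.7 to 73.4 CPM, lay below all 5 diaphragm values, 76.9 to 132 CPM. The share of all genes that separate in this way there was not counted. The difference between the comparisons was not tested. The call in the class II-low libraries (adjusted p = 0.0388) was lost without each of dura 1, dura 3, diaphragm 1 and diaphragm 7 in turn and in the fit of all 16 libraries.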

How the results depend on the processing

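In the class II-low libraries 2988 genes were called, and other scalings, tools, filters and single sequencing runs gave counts between 2598 and 3720. The fit of all 16 libraries, whose sets of other libraries are mixed, called 1624, and the cause was not tested. Without 1 library the count was 1863 to 2594, the lowest without diaphragm 1. In the other libraries 2843 genes were called, and 2218 to 3092 without 1 library. Of 254 named or list genes, 249 were called in the class II-low libraries, and none changed direction under a setting that tested it. Some that were not called passed elsewhere, Mertk and Osm under several settings, Hspa8 with DESeq2 and Tmem119 with no filter. A filter of 10 CPM in 2 libraries left 25 of the 254 untested, and leaving out dura 1 or dura 3 left 2. The fit of all 16 libraries lost 102 of these calls, limma-voom 19 (among them Ptgds, Gjb6, Cilp, Marco and Clec4f), and each of the other settings that kept all 5 libraries at most 5 of those it tested. Leaving out 1 library lost between 21 and 54 calls, most without diaphragm 1. No paired analysis was possible because dural numbers 1, 3 and 4 and diaphragm numbers 1 and 7 share fewer than 2 numbers. With 3 against 2 libraries, changes near 2-fold were often missed in simulated data, in which far fewer genes changed than were called here. A gene that did not pass is in any case not shown to be equal.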
